A study of Mus musculus with 4 samples.

Results

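The genes described here encode the nuclear subunits of the mitochondrial respiratory chain and ATP synthase. They were taken by symbol from the protein-coding rows of the deposited table, as symbols starting with Nduf, Uqcr, Cox4, Cox5, Cox6, Cox7, Cox8 or Atp5, with Sdha, Sdhb, Sdhc, Sdhd and Cyc1 added. This gave 93 of the 46603 gene IDs in the table. By textbook assignment 44 belong to complex I, 4 to complex II, 9 to complex III, 20 to complex IV and 16 to complex V, the ATP synthase. The symbol rule also caught 8 assembly factors of complex I (Ndufaf1 to Ndufaf7 and Atp5sl), which help to build the complex and are not part of it. The symbol rule itself uses no measured value, but it was chosen with earlier results of these data known.

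The respiratory chain passes electrons from NADH and succinate to oxygen and pumps protons across the inner mitochondrial membrane, and ATP synthase uses the proton gradient to make ATP. Each complex except complex II joins subunits from nuclear genes with a few subunits encoded in mitochondrial DNA, so that its assembly needs the products of both genomes in step. Mouse embryonic stem cells are known to use both glycolysis and respiration. Several subunits of complex IV have a second gene that is known to be used in muscle, lung or testis.

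Polyadenylated RNA was sequenced from mouse embryonic stem cells, pluripotent cells taken from the early embryo, of the genotypes Gsk3a-/-;Gsk3b-/- and wild type (Gsk3a+/+;Gsk3b+/+), with 2 libraries each. Gsk3a and Gsk3b encode the paralogous kinases of the glycogen synthase kinase 3 family. All cells were grown in 15% fetal bovine serum with 1000 units/mL of leukaemia inhibitory factor, on gelatin with irradiated mouse embryonic fibroblasts as feeders. The sample labels give embryonic day 16, and the design text another value. The design calls the libraries biological replicates without saying whether they are separate clones, so p-values measure the spread between these libraries. The labels do not describe the alleles. The deposited table calls its groups A and B, and the sources used here do not tie either of them to a genotype. Differences therefore run as B over A, with no genotype assigned.

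The counts of the single libraries, called B1, B2, A1 and A2, were recovered from the group means. Totals were 146326307 in B1 and 112655210 in B2, against 143182371 in A1 and 134463318 in A2. Gsk3a had 1697 and 1347 normalized counts in group B, against 6353 and 7104 in group A, and Gsk3b had 5051 and 5002 in group B, against 5438 and 6285 in group A. Gsk3a was lower in group B (adjusted p = 4.9e-24 in the authors' deposited table), Gsk3b had an adjusted p of 0.984 there, and neither transcript was absent from either group. A normalized count is a read count divided by the size factor of its library. The label of embryonic stem cells was checked against 10 pluripotency markers, of which Pou5f1, the POU factor at the core of that state, had 105468 and 93404 in group B and 115577 and 125786 in group A. One of the 10, Utf1, was lower in group B in the authors' deposited table (adjusted p = 0.000237), where 1.92% of all genes tested were. The 10 markers summed to 812803 and 826285 in group B, against 873785 and 942248 in group A, with a median log2 fold change of -0.29. Both B libraries were below both A libraries in 6 of the 10 and above in 0, beside 26.0% and 26.4% of all genes averaging at least 10, and 3 were lower at an unadjusted p under 0.05 in the authors' deposited table, beside 5.41% of all genes tested. The summed normalized counts of 12 feeder fibroblast markers were 121797 in B1 and 382106 in B2, against 251208 in A1 and 179379 in A2. Of these markers 0 passed an adjusted p of 0.05, and 0 an unadjusted one, in the authors' deposited table or in limma. Of all genes 3.46% and 10.5% passed in the deposited table, and 2.01% and 20.7% in limma. The feeder markers had a median limma SE of 0.82, against 0.20 over all genes, so these counts cannot show equal feeder content. The sums of 12 endoderm markers were 297518 and 143017 in group B, against 76061 and 58351 in group A. Col4a1, Lama1 and Col4a2 made up most of each sum. Of the 11 averaging at least 10 normalized counts, 10 had a log2 fold change above 0, and Cubn had -0.60. Of the 12, 0 passed an adjusted p of 0.05 in the authors' deposited table, and 8 were higher in group B at an unadjusted p under 0.05, beside 5.11% of all genes tested. Limma called 3 of them higher in group B at an adjusted p of 0.05, Gata6, Sox17 and Lama1, beside 200 of 20465 genes in that direction. The sums of 8 macrophage markers were 3487 and 3898 in group B, against 3361 and 2972 in group A, and most of each sum was Cd68. Cd68 had 2128 and 1960 in group B, against 2748 and 2458 in group A, and both B libraries were below both A libraries for Cd68 and Itgam and above them for the other 6. The median log2 fold change of the 8 was 1.26. At an unadjusted p under 0.05, 5 were higher in the authors' deposited table, beside 5.11% of all genes tested, and Lyz2 was higher there at an adjusted p of 8.8e-05, where 1.54% of all genes tested passed in that direction. The part of these other cells in the results below was not tested. In these bulk samples fewer cells of a type and less RNA per cell cannot be told apart.

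The table lists every gene of chromosomes X, Y and M at 0 in both groups, that is 2601, 1570 and 37 genes. This includes genes that every cell uses, such as Hprt and Pgk1, while 11.0% of the autosomal protein-coding genes are at 0. The X-linked members Ndufa1 and Ndufb11, of the membrane arm of complex I, and Cox7b, of complex IV, are therefore listed at 0, as are all 13 subunits encoded in mitochondrial DNA. The values below are those of the 90 autosomal members, of which 88 averaged at least 10 normalized counts. The tissue isoforms Cox6a2 and Cox8b had less.

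The comparison asked how the transcripts of these genes stood between cells labelled Gsk3a-/-;Gsk3b-/- and cells labelled wild type, which here can be read only as group B beside group A. Levels of respiratory chain transcripts in group B lay close to those in group A in every complex. Of 90 members 0 passed an adjusted p of 0.05 in the authors' deposited table, where 3.46% of the 30237 genes tested passed, and 5.04% of the 10106 genes averaging at least 1000. The smallest adjusted p of a member was 0.189. At an adjusted p of 0.1 the members called also numbered 0, beside 4.52% of all genes tested. An unadjusted p under 0.05 was reached by 3 members, 2 higher and 1 lower in group B, beside 10.5% of all genes tested, 5.11% higher and 5.41% lower. Limma on the recovered counts called 0 of 88 members at an adjusted p of 0.05, where 2.01% of 20465 genes passed, and 10 at an unadjusted p under 0.05, 5 higher and 5 lower in group B, beside 20.7% of genes, 10.3% higher and 10.4% lower.

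The median log2 fold change of the 88 members was -0.02, with an interquartile range of -0.10 to 0.07. Over all 20465 genes of that level it was 0.01, with a range of -0.24 to 0.26. Among genes averaging at least 1000, the log2 fold change had an SD of 0.135 over 81 members and 0.393 over all 10106 genes. Of these 81 members 96.3% differed by less than 1.2-fold, and of all 10106 genes 68.0% did. The libraries of one group also lay closer together for the members: the SD of the log2 ratio of B2 to B1 was 0.137 for the members and 0.349 for all genes of that level, and that of A2 to A1 was 0.0712 and 0.221. These spreads describe the genes and were not tested against other lists. In 78 of the 88 members the 95% interval of the limma fold change lay within 1.5-fold in both directions, beside 6896 of 20465 genes. The members were also more abundant, with a median of 12018 normalized counts, against 944 over those genes. Among genes averaging at least 1000, the medians were 12902 for the members and 5190 for all genes.

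**Figure D1:**
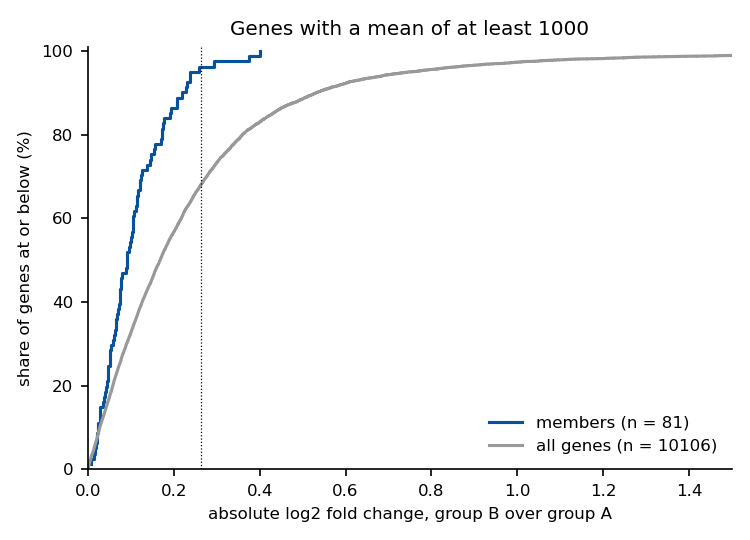
Cumulative share of genes in percent (y axis) against the absolute log2 fold change of group B over group A (x axis), for the 81 members (blue) and all 10106 genes (grey) averaging at least 1000 normalized counts. The dotted line marks 1.2-fold, below which lie 96.3% of the members and 68.0% of all genes.

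Both B libraries lay above both A libraries in 21 of 88 members, or 23.9%, and below both in 29, or 33.0%. Over all genes averaging at least 10 the shares were 26.4% above and 26.0% below, or 52.5% in either direction. With 2 libraries against 2, an exact two-sided permutation test of one gene cannot give a p below 0.333. Together the members took 1.28% of all counts in B1 and 1.28% in B2, against 1.29% in A1 and 1.28% in A2, each with a Wilson 95% half-width of at most 0.00207 percentage points for counting error only. The log2 ratio of their summed normalized counts, B over A, was 0.0045.

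**Figure D2:**
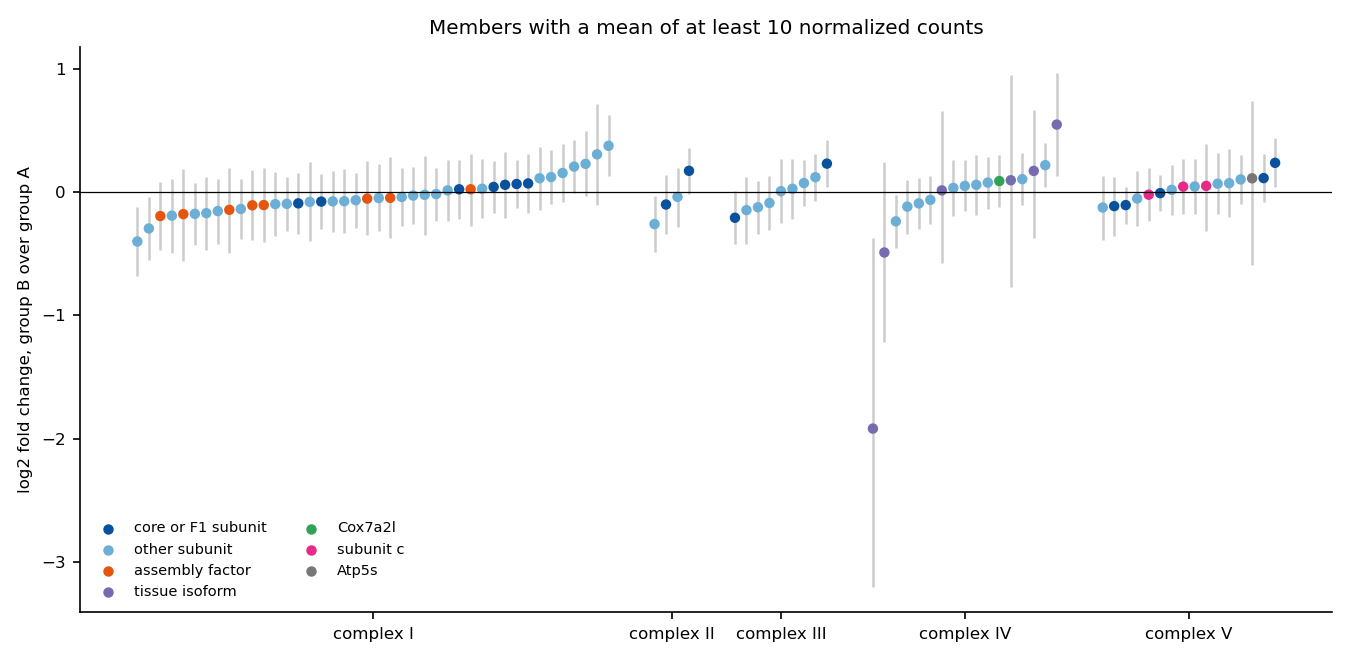
Log2 fold change of group B over group A (y axis) for the 88 members averaging at least 10 normalized counts, sorted within each complex (x axis) and coloured by role. Grey lines are limma 95% intervals, from 2 libraries per group. Most points lie near 0, with Ndufa4l2 lowest at -1.92 and Cox7a1 highest at 0.55.

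Complex I takes electrons from NADH and hands them to coenzyme Q. Its 7 nuclear core subunits carry the flavin and the iron-sulfur clusters, and their log2 fold changes lay between -0.09 and 0.07. Ndufv1, which binds NADH and the flavin, had 20489 and 19951 normalized counts in group B and 20205 and 19078 in group A. Ndufs1, the largest of the iron-sulfur proteins, had 18542 and 16585 in group B and 17520 and 17046 in group A, so its groups overlapped. The core subunits Ndufv2, Ndufs3, Ndufs7 and Ndufs8 had log2 fold changes of -0.08, 0.06, -0.09 and 0.07.

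The 27 measured accessory subunits of complex I, which surround the core, had a median log2 fold change of -0.05, with 9 above 0 and 18 below. They hold the only complex I members with an unadjusted p under 0.05 in the authors' deposited table. Ndufb9 (ENSMUSG00000022354, chr15:58933756-58939488, plus strand, mm10), of the membrane arm, had 14148 and 15358 normalized counts in group B, against 11827 and 10910 in group A. Both B libraries exceeded both A libraries, by a log2 fold change of 0.38 with an unadjusted p of 0.0433 and an adjusted p of 0.439 in the authors' deposited table. Limma gave 0.38 (SE 0.10, 95% interval 0.13 to 0.62, adjusted p = 0.118). Ndufv3 (ENSMUSG00000024038, chr17:31520115-31531331, plus strand), a small subunit of the NADH-oxidising module, had 6270 and 6854 in group B, against 8213 and 9109 in group A. Both B libraries were below both A libraries, by a log2 fold change of -0.40 with an unadjusted p of 0.0267 and an adjusted p of 0.327 in the authors' deposited table, and by -0.40 (SE 0.11, adjusted p = 0.128) in limma. Ndufa8, another accessory subunit, had 7318 and 6681 in group B, against 8412 and 8759 in group A, with an unadjusted limma p of 0.0311. Of the reads of Ndufb9, those on 19.5% of its exonic bases could also belong to Gm49356, annotated on the same strand.

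The 8 assembly factors of complex I had a median log2 fold change of -0.11 within a range of -0.19 to 0.02, and 7 of the 8 were below 0. Both B libraries were below both A libraries in 4 of the 8 and above in 0, beside 26.0% and 26.4% of all genes. The separated genes thus all lay in the same direction, and this was not tested against the shares of all genes. Ndufaf7, a mitochondrial methyltransferase, had 3575 and 3501 normalized counts in group B, against 3946 and 4147 in group A, with a log2 fold change of -0.19 and an adjusted p of 1 in the authors' deposited table. Ndufaf2, which binds a late intermediate of the complex, had 2962 and 2969 in group B, against 3219 and 3168 in group A, a log2 fold change of -0.11. On 65.6% of its exonic bases another gene, B230220B15Rik, is annotated on the other strand. None of the 8 passed a test.

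Complex II is succinate dehydrogenase, which is also an enzyme of the TCA cycle and has only nuclear subunits. Sdha, the flavoprotein that oxidises succinate, had 36096 and 36487 normalized counts in group B, against 32025 and 32351 in group A, with both B libraries above both A libraries at a log2 fold change of 0.17. Sdhb, its iron-sulfur partner, had 12380 and 13537 in group B, against 13510 and 14275 in group A, at -0.10 and with overlapping groups. The membrane anchors also lay apart from each other. Sdhc had 14121 and 14805 in group B, against 16667 and 17946 in group A, at -0.26 with an unadjusted limma p of 0.0322. Sdhd had 18426 and 16379 in group B, against 17803 and 17938 in group A, at -0.04. Per kilobase of exon, the ratio of Sdha to Sdhb levels was 1.58 and 1.46 in group B, against 1.29 and 1.23 in group A. None of the 4 passed an adjusted p of 0.05 in either test.

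Complex III moves electrons from coenzyme Q to cytochrome c, and its 9 members had a median log2 fold change of 0.01. Cyc1, the cytochrome c1 that gives the electrons on, had 39945 and 38836 normalized counts in group B, against 34356 and 32758 in group A. Uqcrfs1, the Rieske iron-sulfur protein that precedes it, had 15069 and 14563 in group B, against 17403 and 16821 in group A. The redox subunits thus lay on opposite sides, at log2 fold changes of 0.23 (limma SE 0.08, adjusted p = 0.176) and -0.21 (limma SE 0.09, adjusted p = 0.254), and neither passed. The structural core proteins Uqcrc1 and Uqcrc2 were at 0.07 and 0.12, and Uqcrh, the hinge protein at cytochrome c1, at -0.15.

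Complex IV, cytochrome c oxidase, reduces oxygen to water on subunits that mitochondrial DNA encodes, and its nuclear subunits surround this centre. Leaving out tissue isoforms, 11 members averaged at least 10 normalized counts and had a median log2 fold change of 0.05. Cox4i1, which joins the centre early in assembly, had 61004 and 60729 normalized counts in group B, against 53612 and 50984 in group A, at 0.22 with an unadjusted limma p of 0.0244. Cox7c, a single-pass subunit of the membrane part, had 14040 and 14501 in group B, against 17139 and 16496 in group A, at -0.24 with an unadjusted limma p of 0.0361. Both genes had separate groups and neither passed an adjusted p. Cox7a2l, a factor that joins complexes III and IV in supercomplexes, had 16445 and 16745 in group B and 15591 and 15594 in group A, at 0.09.

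ATP synthase had the largest summed counts of the complexes, not divided by length, with 0.583% and 0.568% of all counts in group B, against 0.584% and 0.587% in group A. Whether its median per kilobase, given below, was the highest depended on the length used. Atp5b, the catalytic beta subunit of the F1 head, had 307576 and 299181 normalized counts in group B and 298347 and 311859 in group A, and was the highest member both in counts and per kilobase. Atp5a1, the alpha subunit, had 175459 and 173264 in group B, against 184822 and 190240 in group A, at a log2 fold change of -0.11. Atp5d, the delta subunit of the central stalk, had 31488 and 33261 in group B, against 27880 and 27029 in group A, at 0.24 with an unadjusted limma p of 0.0270 and an adjusted limma p of 0.181. Over all 16 members the median was 0.05, the lowest Atp5l at -0.12, and both B libraries lay on one side of both A libraries in 5 of 16, beside 52.5% of all genes.

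**Figure D3:**
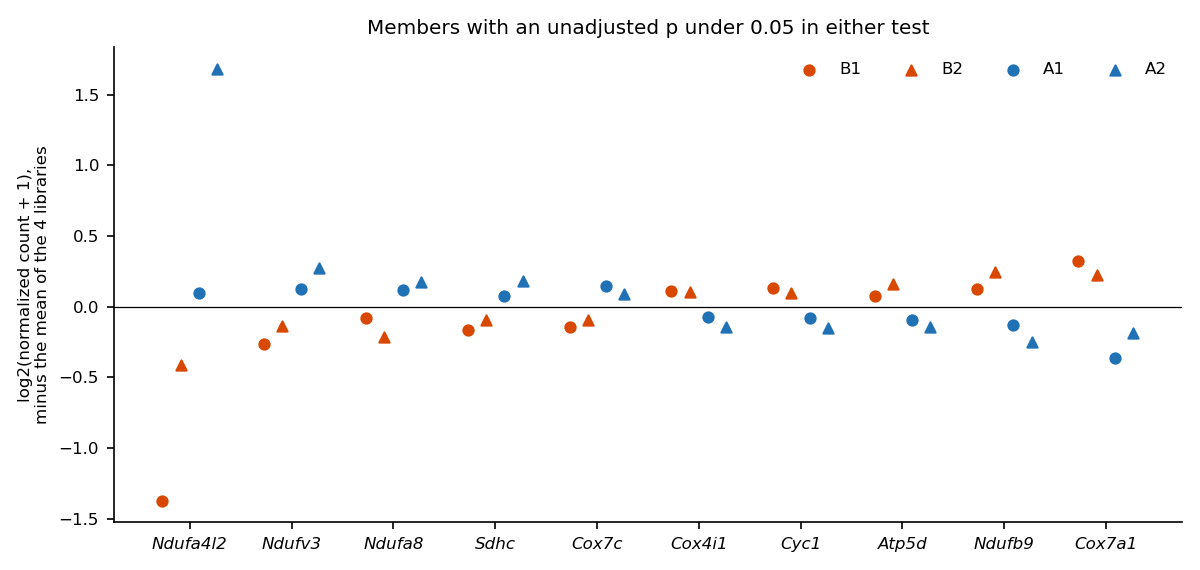
Log2(normalized count + 1) in each library, minus the mean of the 4 libraries (y axis), for the 10 members with an unadjusted p under 0.05 in limma, which include the 3 of the authors' deposited table. Orange marks are B1 and B2 and blue marks A1 and A2. The groups do not overlap in any of the 10, which were chosen by these values, and Ndufa4l2 shows the widest spread within groups.

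The widest differences between the groups were in tissue isoforms of complex IV, which are low in these cells. Cox7a1 (ENSMUSG00000074218, chr7:30184144-30186078, plus strand), the heart and skeletal muscle form of subunit 7a, had 939 and 880 normalized counts in group B, against 583 and 660 in group A. Both B libraries exceeded both A libraries, by a log2 fold change of 0.55 with an unadjusted p of 0.0112 and an adjusted p of 0.189 in the authors' deposited table, and by 0.55 (SE 0.17, 95% interval 0.13 to 0.97, adjusted p = 0.153) in limma. Its ubiquitous partner Cox7a2 had 21608 and 20841 in group B and 23163 and 22061 in group A. Per kilobase, the share of Cox7a1 in the pair was 7.12% and 6.93% in group B, against 4.25% and 5.02% in group A. The summed endoderm markers given above also differed between these groups, and a link of Cox7a1 to those cells was not tested.

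Ndufa4l2 (ENSMUSG00000040280, chr10:127514967-127517154, plus strand), a paralog of the complex IV subunit Ndufa4 that is known to be induced in hypoxia, had 171 and 335 normalized counts in group B, against 477 and 1435 in group A. The groups did not overlap, but A2 was about as far from A1 as A1 was from B1. The log2 fold change was -1.92 with an adjusted p of 0.744 in the authors' deposited table, and -1.78 (SE 0.57, 95% interval -3.20 to -0.37, adjusted p = 0.165) in limma. Without A2 the limma value was -0.99, without A1 -2.58, without B1 -1.30 and without B2 -2.26, so the size of the difference moved by more than 1.5 times with a single library. Ndufa4 itself had 25212 and 23665 in group B and 23647 and 22675 in group A, and Ndufa4l2 made up 0.850% and 1.75% of the pair per kilobase in group B, against 2.48% and 7.39% in group A.

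The other tissue isoforms ranged from at or near 0 counts to a small share of their set. Cox6b2, the testis form of subunit 6b, was the best represented, with 3293 and 4922 normalized counts in group B and 3904 and 3387 in group A, or 7.23%, 11.7%, 9.06% and 8.40% of the Cox6b1 and Cox6b2 levels per kilobase in B1, B2, A1 and A2. Cox4i2, the lung form of subunit 4, made up 1.49% and 1.60% of its pair in group B and 1.39% and 2.18% in group A. Cox8c, a testis form, made up 0.252% and 0.243% of the levels of Cox8a and Cox8c in group B, against 0.315% and 0.325% in group A. The muscle forms Cox6a2 and Cox8b had at most 3 counts in any library, which is the floor used here, so no fold is given for them. Cox7b2, a testis form, had 38.5 and 44.9 normalized counts in group B and 41.5 and 36.6 in group A, and its partner Cox7b is among the X-linked genes listed at 0. The ubiquitous form exceeded its tissue form in every library and every pair measured.

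**Figure D4:**
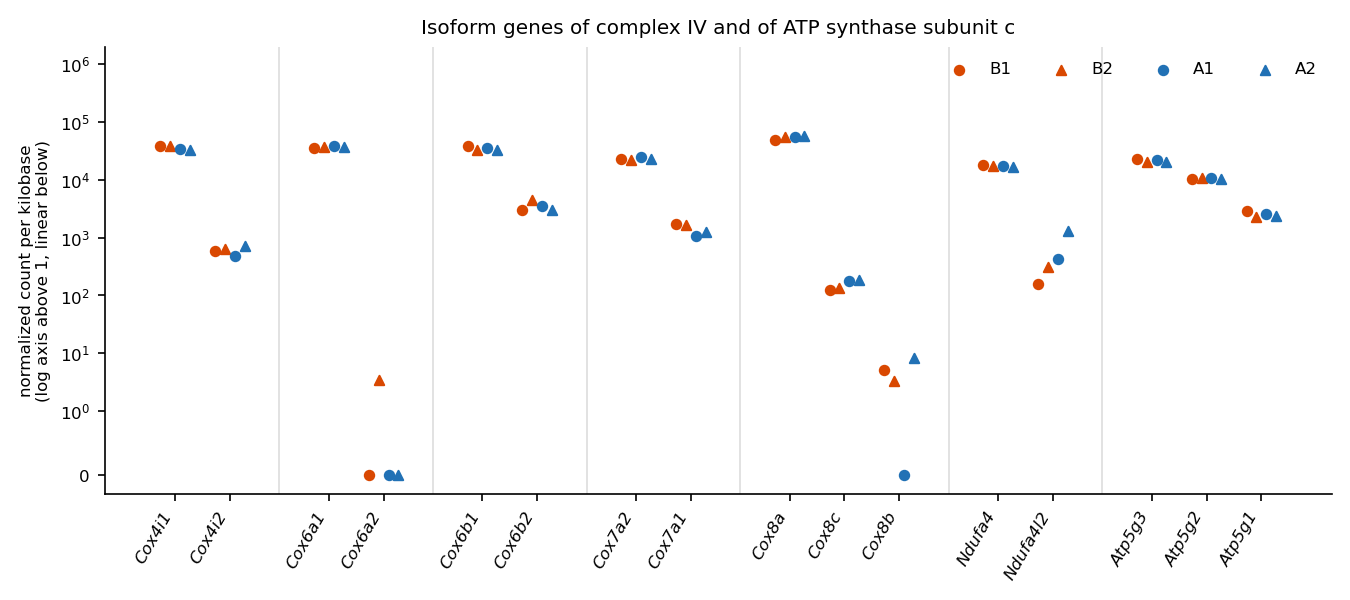
Normalized count per kilobase of exon union (y axis, logarithmic above 1 and linear below) of the isoform genes of complex IV and of ATP synthase subunit c (x axis), with B1 and B2 in orange and A1 and A2 in blue. Cox7a1 lies higher and Ndufa4l2 lower in the B libraries than in the A libraries, and Cox6a2 and Cox8b lie near 0.

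Promoter stretches of Cox8a and Cox8b, an abundant form and one at or near 0, and of Cox7a2 and Cox7a1, an abundant form and the tissue form with the highest log2 fold change, are shown here so that the letters can be read beside the levels above. The stretches end at or near the RefSeq start of the gene on GRCm38.p6, and are printed 5′ to 3′ on the strand of the gene. That of Cox8a runs just past this start, so the end of its marked match lies beyond it. Otherwise bases that are annotated as exons are left out. Capitals mark matches to CCGGAAG, the core bound by GABPA, or to the core bound by NRF1, GCGC and GCGC with NT between them, on either strand. Both proteins are known as activators of respiratory chain genes. The stretches are Cox8a from chr19:7217615-7217766 (minus strand), Cox8b from chr7:140900447-140900596 (minus strand), Cox7a2 from chr9:79759879-79760028 (minus strand) and Cox7a1 from chr7:30183994-30184143 (plus strand). Within these 4 stretches CG dinucleotides number 11 for Cox8a, 1 for Cox8b, 10 for Cox7a2 and 3 for Cox7a1.
Cox8a: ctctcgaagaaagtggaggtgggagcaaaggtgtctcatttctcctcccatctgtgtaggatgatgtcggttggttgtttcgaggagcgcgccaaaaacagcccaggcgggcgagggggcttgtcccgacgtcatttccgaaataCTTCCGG
Cox8b: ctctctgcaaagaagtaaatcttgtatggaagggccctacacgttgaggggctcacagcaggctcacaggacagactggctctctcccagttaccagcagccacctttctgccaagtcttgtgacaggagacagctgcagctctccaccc
Cox7a2: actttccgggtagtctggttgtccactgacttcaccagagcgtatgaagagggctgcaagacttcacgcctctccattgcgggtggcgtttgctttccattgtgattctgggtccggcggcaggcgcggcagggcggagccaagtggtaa
Cox7a1: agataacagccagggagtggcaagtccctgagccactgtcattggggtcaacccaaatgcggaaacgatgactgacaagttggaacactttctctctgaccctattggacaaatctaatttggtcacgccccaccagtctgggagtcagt

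The next pair shows the motifs themselves. Cox6a1, the ubiquitous form of subunit 6a, with 25181 and 25670 normalized counts in group B and 26891 and 26212 in group A, carries both an exact NRF1 core, with AT between the GCGC elements, and a match to the wider form, which on the other strand reads CT between them, in chr5:115348982-115349129 (minus strand). Sdhd, the complex II anchor described above, shares its start region with the import factor gene Timm8b, which begins 98 bases away in the other direction, and carries a GABPA core in chr9:50603850-50603909 (minus strand).
Cox6a1: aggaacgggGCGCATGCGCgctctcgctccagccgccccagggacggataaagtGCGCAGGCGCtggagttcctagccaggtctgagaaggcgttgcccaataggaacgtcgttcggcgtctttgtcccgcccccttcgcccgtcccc
Sdhd: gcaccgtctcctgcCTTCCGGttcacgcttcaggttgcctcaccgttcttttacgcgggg

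In windows of 250 bases before to 50 bases after the RefSeq start, 76 of the 93 members had an entry. Of 8 motifs searched on both strands, CCGGAAG was in 17 members or 22.4%, beside 23.5% of 6912 other protein-coding genes averaging at least 1000 and 9.93% of 27025 genes in all. The exact NRF1 core was in 7 members or 9.21%, beside 2.68% of the other expressed genes, and the wider form, which contains it, in 19 or 25.0%, beside 13.6%. The exact form was in Atp5g2, Atp5k, Cox6a1, Ndufa11, Ndufaf4, Ndufaf5 and Uqcrc1. AAGATGGC, the core bound by YY1, was in 11 or 14.5%, beside 6.18%. GGGCGG, the core bound by SP1, was in 34 or 44.7%, beside 73.7%. CCAAT, bound by NF-Y, was in 44.7% beside 43.5%, the TATA element TATAAA in 9.21% beside 7.52%, and TGACGTCA, bound by CREB, in 5.26% beside 4.11%. The median number of CG dinucleotides per window was 19.5 in the members and 22 in the other expressed genes. A match describes letters in a window, and binding was not measured.

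Levels were compared between genes per kilobase of the union of annotated exons. In complex I the subunits ran from Ndufb2 at 136 to Ndufa2 at 12716 normalized counts per kilobase, a mean over the 4 libraries. The annotated transcripts of Ndufb2 are unusually long, with 4371 bases in the principal one, which lowers its value per kilobase. Its count was also low before division by length, with a mean of 763, beside a median of 7723 over the 42 measured complex I members. Complex II ran from Sdhc at 4888 to Sdhd at 14327, and complex III from Uqcrq at 6438 to Uqcr10 at 28768. Complex IV ran from Cox7b2 at 74.5 to Cox8a at 54245, and complex V from Atp5s, a coupling factor, at 326 to Atp5b at 71806. The median per kilobase was 3990 in complex I, 7147 in II, 13970 in III, 10272 in IV and 9347 in V, with assembly factors and tissue isoforms included. With the principal transcript as the length, the order of genes had a Spearman correlation of 0.879 with that above over 88 genes, which share their counts. The highest gene became Ndufa7 in complex I, Uqcrc1 in complex III and Cox4i1 in complex IV. The medians of complexes I to V became 8107, 11781, 23996, 20979 and 24854, so the order of complexes changed. By exon union without assembly factors, tissue isoforms and Atp5s, complex IV had the highest median, at 17234, beside 13970 in complex III.

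**Figure D5:**
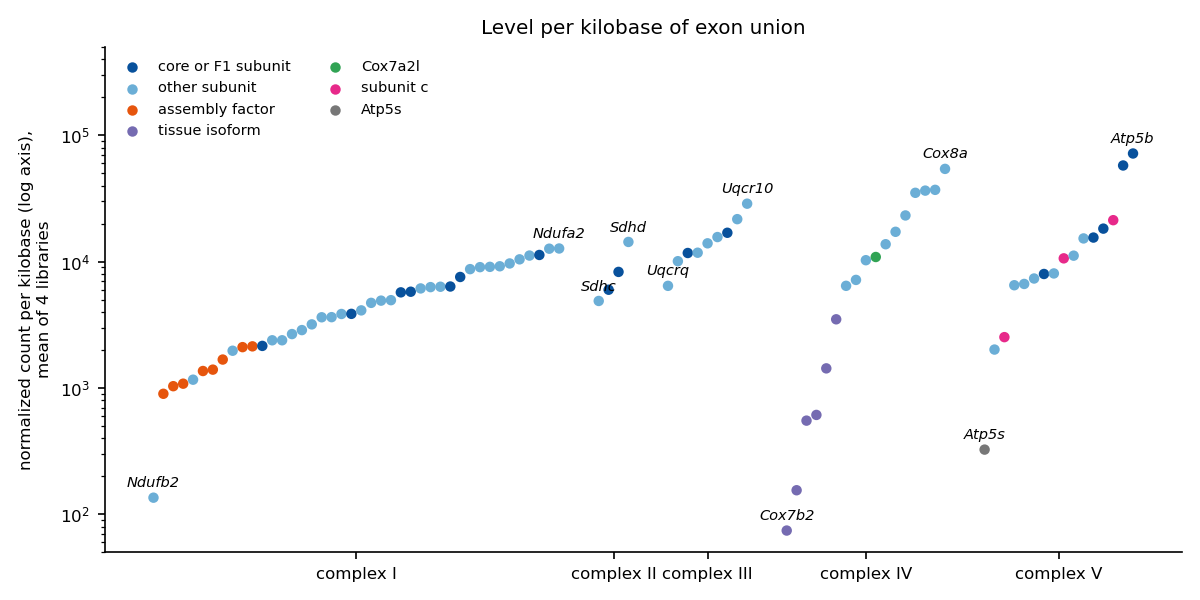
Mean normalized count per kilobase of exon union over the 4 libraries (y axis, logarithmic) for the 88 members averaging at least 10 normalized counts, sorted within each complex (x axis), with the lowest and highest gene named. Assembly factors (red-orange) lie in the lower part of complex I and tissue isoforms (purple) in the lower part of complex IV.

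The F1 head of ATP synthase holds several alpha and beta subunits around a single gamma subunit. Transcripts of alpha and beta exceeded that of gamma, and a link to the number of subunits was not tested. Per kilobase, Atp5b exceeded Atp5c1, the gamma subunit, 3.71 and 3.84 times in group B, against 4.01 and 4.21 times in group A. Atp5a1 exceeded it 2.86 and 3.0 times in group B, against 3.35 and 3.47 times in group A. Both ratios, which share Atp5c1 as the denominator, were lower in the B libraries than in the A libraries without overlap. The groups were not tested. The ratio of Atp5b to Atp5a1 had a mean of 1.25 for the exon union and 2.17 for the principal transcript. The ratio of Atp5b to Atp5c1 depends on the length taken for each gene, with a mean of 3.94 for the exon union, 5.32 for the principal transcript and 7.92 for the longest.

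Subunit c, whose copies form the rotating ring, is encoded by 3 genes with the same mature protein and different import signals. Atp5g3 had 49669 and 44674 normalized counts in group B and 47508 and 43967 in group A, Atp5g2 17165 and 18172 in group B and 18128 and 17719 in group A, and Atp5g1 14223 and 11046 in group B and 12729 and 11667 in group A. Per kilobase, Atp5g3 made up 63.4% and 61.0% of the set in group B and 61.9% and 60.9% in group A. Atp5g2 made up 28.5% and 32.3% in group B and 30.7% and 31.9% in group A, and Atp5g1 8.06% and 6.70% in group B and 7.36% and 7.17% in group A. The order Atp5g3, Atp5g2, Atp5g1 held in every library, with differences far beyond the spread between libraries, and the groups overlapped for each gene.

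The members lie on 19 chromosomes, and many start beside another gene. Among protein-coding genes averaging at least 1000, another protein-coding gene started on the opposite strand within 1000 bases upstream for 20 of 81 members, or 24.7%, beside 1050 of 8984 genes, or 11.7%. Ndufa7 and the ribosomal protein gene Rps28 start 10 bases apart, and had log2 fold changes of -0.02 and 0.07. Ndufb9 starts 18 bases from Tatdn1, which had 1096 and 1116 normalized counts in group B, against 974 and 911 in group A, so that both genes had their B libraries above their A libraries. Ndufv3 starts 135 bases from Wdr4, a subunit of a tRNA methyltransferase, which had 8938 and 8738 in group B, against 7883 and 8212 in group A, the opposite side from Ndufv3. Sdha starts 29 bases from Ccdc127, at log2 fold changes of 0.17 and -0.01. None of these neighbours passed an adjusted p of 0.05 in the authors' deposited table, beside 3.46% of all genes tested.

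Reads of some members may be split with copies or overlapping genes. Exons of 31 of the 90 autosomal members overlap those of another gene, by over 10% of exonic bases in 11 and on the same strand in 5. The sources used here do not name the counting tool or its strand setting. Atp5j, a stalk subunit of ATP synthase, shares 12.7% of its exonic bases with Gabpa, the gene of the activator named above, on the other strand. The table also counts 7 processed pseudogenes named after a member. Ndufab1-ps had a mean of 4258 normalized counts, 53.1% of that of Ndufab1, the acyl carrier protein of complex I, and Atp5l2-ps had 25.0% of that of Atp5l, a subunit g of the membrane part. Reads of Ndufab1 and Atp5l could be split with these copies, so their levels are uncertain. Of the 7 pseudogenes 0 passed an adjusted p of 0.05 in the authors' deposited table, beside 3.46% of all genes tested.

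Other genes that act on the chain were taken from lists made by function. Of 45 further assembly factors 43 had a count, and 0 passed an adjusted p of 0.05 in the authors' deposited table or in limma. In these tests 3.46% and 2.01% of all genes passed. At an unadjusted p under 0.05 the deposited table held 1 higher and 4 lower, beside 5.11% and 5.41% of all genes tested. Their median log2 fold change was -0.07, with both B libraries below both A libraries in 19, or 44.2%, and above in 6, or 14.0%, beside the 26.0% and 26.4% of all genes. Tmem126b, which acts on the membrane arm of complex I, had 1125 and 1146 normalized counts in group B, against 1645 and 1859 in group A, with an adjusted p of 0.0556 in the authors' deposited table. Ecsit, of the same assembly module, had 3467 and 3793 in group B, against 5098 and 5561 in group A, with an adjusted p of 0.0697 in the authors' deposited table. Lrpprc, which stabilises mitochondrial messenger RNA, had 33643 and 33644 in group B, against 23838 and 24736 in group A, with adjusted p-values of 0.160 in the authors' deposited table and 0.0503 in limma. These 3 were named after their values were seen.

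Of 16 genes of cytochrome c and coenzyme Q synthesis, 15 had a count and 1 passed, beside 3.46% of all genes tested. Coq8a, an atypical kinase needed for coenzyme Q synthesis, fell to 990 and 953 normalized counts in group B, against 1529 and 1991 in group A, with a log2 fold change of -0.86 and an adjusted p of 0.0237 in the authors' deposited table. With limma its adjusted p was 0.0763. Cycs, the somatic cytochrome c that carries electrons between complexes III and IV, had 17959 and 16126 in group B and 17712 and 16119 in group A. Of 24 regulators of respiratory genes and of mitochondrial DNA, 0 passed in either test, beside 3.46% of all genes in the deposited table and 2.01% in limma. At an unadjusted p under 0.05 the deposited table held 1 higher and 2 lower, beside 5.11% and 5.41% of all genes tested. Nrf1 had 9947 and 8846 in group B and 9578 and 9549 in group A, and Gabpa 15355 and 14721 in group B, against 17828 and 19020 in group A, with an adjusted p of 0.719 in the authors' deposited table. Ppargc1a, a coactivator of mitochondrial biogenesis in other tissues, had at most 4.73 normalized counts in any library. Of 21 genes of the TCA cycle and pyruvate dehydrogenase 18 were autosomal, and 0 passed in either test. At an unadjusted p under 0.05 the deposited table held 1 higher and 2 lower. The shares of all genes beside these counts are those given for the regulators. Citrate synthase, Cs, had 41644 and 41463 in group B and 42011 and 39879 in group A.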

How the data were processed

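Polyadenylated RNA of 4 stranded libraries was measured, and the data are 1 deposited table of group means. The submitters' processing notes name STAR, DESeq and the build mm10. Versions, the read counter, its strand setting and the annotation are not stated in the sources used here. The signal columns of the table are mean normalized counts per group, deposited by the authors, beside their fold ratio, its log2 value and the p-values before and after adjustment. These deposited p-values gave the main test.

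Each group mean is a sum of whole counts of 2 libraries times fixed steps. Counts came out whole within 1e-06 for all 28353 genes present in group B and all 28616 present in group A, with a largest distance of 2.21e-09 and 6.98e-09. Recovered libraries were numbered arbitrarily, without reference to the labels. Limma 3.58.1 (R 4.3.3), with a mean-variance trend, was fitted to log2(normalized count + 1) of 20465 genes averaging at least 10, with a two-sided test and Benjamini-Hochberg adjustment. This scale understates differences of genes with low counts. Procedures were tested on simulated data, with 2 libraries against 2 and a simulated dispersion of 0.02. The fit called 19.7% of 66 genes with a true 1.5-fold change and 75.8% of 66 with a 2-fold change. Of 67 genes with a 4-fold change it called 100%. A limma count of 0 calls therefore does not by itself show that changes of 1.5-fold are absent. Counting error is small at this depth, and 2 libraries per group limit the precision.

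Lengths, positions, overlaps and transcripts come from GENCODE M21, which matched 46005 gene IDs, and promoters from RefSeq (GRCm38.p6). The members and lists were chosen with earlier results of these data known. Named genes are members at the ends of each complex in level or fold change, core subunits, isoform sets and members past the threshold in other lists. Others were chosen after their values were seen. The principal transcript as length and leaving out members with exon overlap were chosen after seeing the data. One item is not reported here.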

Additional observations from a re-analysis of the deposited data

How the results depend on the processing

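The count of members past the threshold was 0 at an adjusted p of 0.05 or 0.1, and with limma. Structural subunits, and members that share no exonic bases with another gene, are subsets of the members. Their counts of 0 follow from that of all members and are no separate check. The count over all members was 3 at an unadjusted p under 0.05. The median log2 fold change of the members stayed between -0.03 and 0.01 under other filters, scalings and subsets, and between -0.03 and -0.01 without 1 library, against a within-group SD of 0.03. Members with both B libraries above both A libraries numbered 17 with total counts and 22 with TMM scaling, and those below 33 and 27. The shares over all genes given above hold for the deposited scaling only, so these counts cannot be read as particular to the members. For 41 named members with a mean of at least 10, 287 alternative log2 fold changes came from limma, some of them without 1 library. In 12 of these members 18 values had the other sign, none larger than 0.17 in size in the authors' deposited table.

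Shares and ratios between genes moved with the length used. The Cox6b2 share was 14.2% with the longest and with the principal transcript, and 11.7% in B2 alone. The Atp5g3 share was 67.2% with the longest and 70.4% with the principal transcript, and 63.4% in B1 alone. The ratio of Atp5b to Atp5c1 was 7.92 and 5.32 with these lengths, 3.71 in B1 alone and 4.21 in A2 alone. No paired analysis was possible because the columns carry no replicate numbers. Genes on chromosomes X, Y and M could not be measured from this table.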
